A study of Zea mays with 2 samples.

Results

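The loci of chromosome 6 were described in endosperm RNA of maize kernels, as 1 of the 10 chromosomes over which RNA sequencing set transcript levels of rea1 mutant kernels against those of wild type (WT). Endosperm is the tissue of the kernel that stores starch and protein, and both genotypes were sampled 15 days after pollination. The labels give no allele, genetic background or number of pooled kernels. The series speaks of triplicates, but each genotype has 1 file with 1 value per locus, called a library below, so the spread between replicates is unknown and no test could be made. Members were the rows of chromosome 6 whose span, the distance from start to end with introns included, was 500 bp or more. There were 821 of them among the 12140 loci listed in all, or among 10926 loci of that span. The other 9 chromosomes, with 10094 loci of that span, served as background.

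REA1, also called midasin, is an AAA-type ATPase known from yeast to help mature the large ribosomal subunit, and the study is known for tracing the rea1 mutation to its maize homologue. Maturing endosperm is known for devoting much of its messenger RNA to a few families of storage proteins, the zeins. Maize chromosome 6 is known for carrying the nucleolus organizer, the array of ribosomal RNA genes, on its short arm. The files identify each locus by position only, so no member could be named, assigned a function or matched to these genes, and endosperm markers could not be checked. In bulk RNA, fewer cells of a type and less RNA per cell cannot be told apart.

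On chromosome 6 a larger share of loci differed between the libraries than on any other chromosome, in both directions and with little shared shift. No test of this difference between chromosomes was possible with 1 library a genotype. Levels are given in FPKM, fragments per kilobase of transcript scaled to each library. The ratio of a locus is the rea1 value of log2(FPKM + 1) with the WT value subtracted, a scale that understates differences of low loci. Limits of 1.5-fold, 2-fold and 4-fold apply to this ratio, while other folds compare the FPKM values themselves. Of the 821 loci, 408 reached 1 FPKM in either library, and these are the loci compared below. The remaining 413 stayed under 1 FPKM in both libraries, and 177 of the 821 were listed at 0 in both.

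Of the 408 loci, 62 were higher in rea1 by 2-fold or more and 41 lower, which together make 103 loci or 25.2% (95% Wilson interval 21.3 to 29.7). On the other 9 chromosomes 18.2% of 5105 loci differed, 10.9% being higher and 7.31% lower. Taken singly, those chromosomes ranged from 16.4% to 20.3%. The share of differing loci that were higher was close to the background, at 60.2% on chromosome 6 and 59.8% elsewhere. Setting the median ratio of well-expressed loci of the whole table to 0 removed a log2 shift of 0.23 and turned this balance on chromosome 6 to 38 higher and 54 lower, or 41.3% higher, while 23% of the loci then differed. On the other chromosomes 44.3% were then higher. Scaling by a trimmed mean of the log ratios, a shift of 0.068, left 49 higher and 43 lower on chromosome 6. The share differing was then 22.7%, against 17.9% elsewhere and at most 19.9% on another single chromosome. Intervals here describe loci of these libraries, treated as independent, and do not describe replicates.

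The whole distribution of ratios was wider on chromosome 6. The median ratio was 0.16 on chromosome 6 (95% interval 0.013 to 0.24), and elsewhere it was 0.10 (0.081 to 0.12). The median size of the ratio, whatever its sign, was 0.56 on chromosome 6 and lay between 0.43 and 0.49 on each of the others. The quartiles were -0.42 and 0.71 on chromosome 6 and -0.35 and 0.55 elsewhere. A 4-fold difference was found for 19 of the 408 loci (4.66%), 8 higher and 11 lower. On the other chromosomes together 2.9% differed by 4-fold, 1.53% higher and 1.37% lower, and the chromosome with the highest share had 4.64%. At 1.5-fold, 46.8% of the 408 loci differed, against 39.6% elsewhere. The median over loci of the mean FPKM was 6.44 against 6.16 elsewhere, and the median span 3371 bp against 3546 bp. Both lay within the range of the other chromosomes, 5.16 to 7.46 FPKM and 3362 to 3718 bp. The make-up differed in part. Loci of 100 to 1000 FPKM were 5.39% of the 408, against 3.17% elsewhere. Loci of 1000 to 2000 bp were 21.1% against 17.3%, and those of 500 to 1000 bp 8.82% against 10.2%.

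By expression level, the share of differing loci on chromosome 6 stood farthest above the background among loci of 10 to 100 FPKM, taken as the mean of both libraries. There, 36 of 140 loci differed by 2-fold (25.7%, 95% Wilson interval 19.2 to 33.5), 24 higher and 12 lower, against 15.3% on the other chromosomes. At 1 to 10 FPKM the shares were 20.7% of 217 loci (15.9 to 26.6) and 16.3%. At 100 to 1000 FPKM they were 54.5% of 22 loci (34.7 to 73.1) and 51.9%, which is near the background. Of the 2 loci at 1000 FPKM or more 1 differed, against 58.8% elsewhere. Below a mean of 1 FPKM the shares were 33.3% of 27 loci (18.6 to 52.2) and 29.6%. The files hold no read counts, and a rough estimate from the lowest values puts 10 FPKM over 1 kb at about 116 fragments in rea1 and 92.2 in WT. Of the 103 differing loci, 95 reached about 20 fragments in either library by this estimate, a share near that elsewhere, with 849 of 927. The estimate took the span, introns included, for the transcript length. Loci with long introns may therefore have far fewer fragments than estimated.

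**Figure D1:**
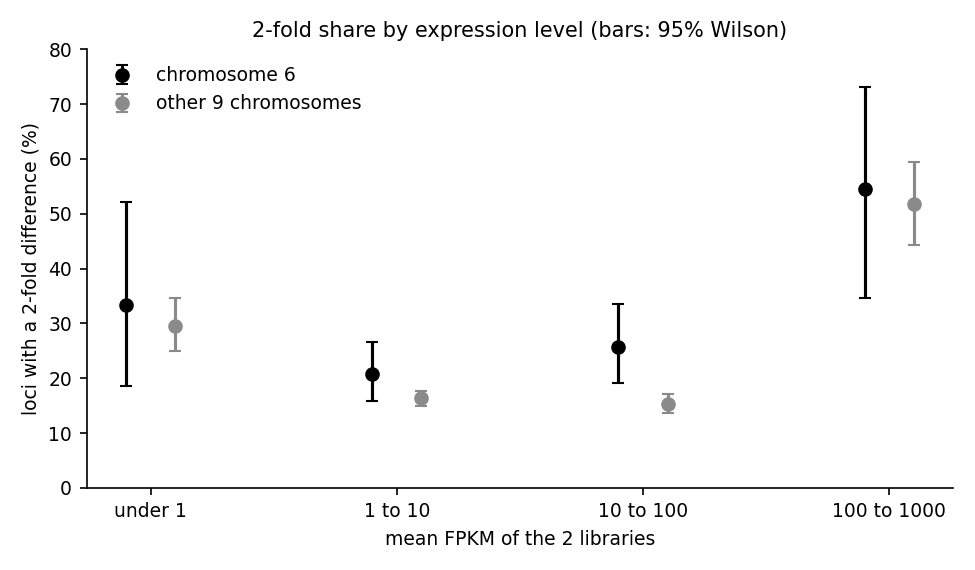
Share of loci with a 2-fold difference (vertical axis, %) by mean FPKM of the libraries (horizontal axis) on chromosome 6 (black) and on the other 9 chromosomes (grey), with 95% Wilson intervals. The gap is widest at 10 to 100 FPKM, at 25.7% against 15.3%, and small at 100 to 1000 FPKM, at 54.5% against 51.9%.

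By span, the shares on chromosome 6 exceeded the background in each of 4 classes. They were 47.2% of 36 loci at 500 to 1000 bp against 37.5% elsewhere, and 38.4% of 86 loci at 1000 to 2000 bp against 29.8%. At 2000 to 5000 bp 21.8% of 156 loci differed against 15.1%, and at 5000 bp or more 14.6% of 130 loci against 9.68%. The share was lower in each longer class, on chromosome 6 as elsewhere.

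Along the chromosome, loci were sparse in the middle of its first part and dense towards its end. Maize chromosomes are known to be poor in genes around their centromeres. The listed loci reached from position 353216 to position 169328438 and were placed by start in 9 bins of 20 Mb, the last of them partly filled. The first bin held 98 loci, and the numbers then were 68 at 20 to 40 Mb, 49 at 40 to 60 Mb, 56 at 60 to 80 Mb and 69 at 80 to 100 Mb. The following bins held 114, 118 and 155 loci, and 94 lay beyond 160 Mb. Density was thus lowest at 40 to 60 Mb, with 2.45 loci per Mb, and highest beyond 160 Mb, with 10.1 loci per Mb.

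The share of loci reaching 1 FPKM was highest in the densest stretch but did not follow density throughout. Beyond 160 Mb, 62 of 94 loci reached it (66.0%, 95% Wilson interval 55.9 to 74.7), and 83 of 84 bins of the other chromosomes with at least 20 such loci had a lower share. At 140 to 160 Mb the share was 56.8% (48.9 to 64.3). The lowest share was found at 60 to 80 Mb, with 22 of 56 loci (39.3%, 27.6 to 52.4). The bin at 100 to 120 Mb, with 5.7 loci per Mb, had 40.4% (31.8 to 49.5), and the sparse bin at 40 to 60 Mb had 40.8% (28.2 to 54.8). Over the whole chromosome 49.7% of loci reached 1 FPKM (46.3 to 53.1), against 50.6% on the other chromosomes.

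**Figure D2:**
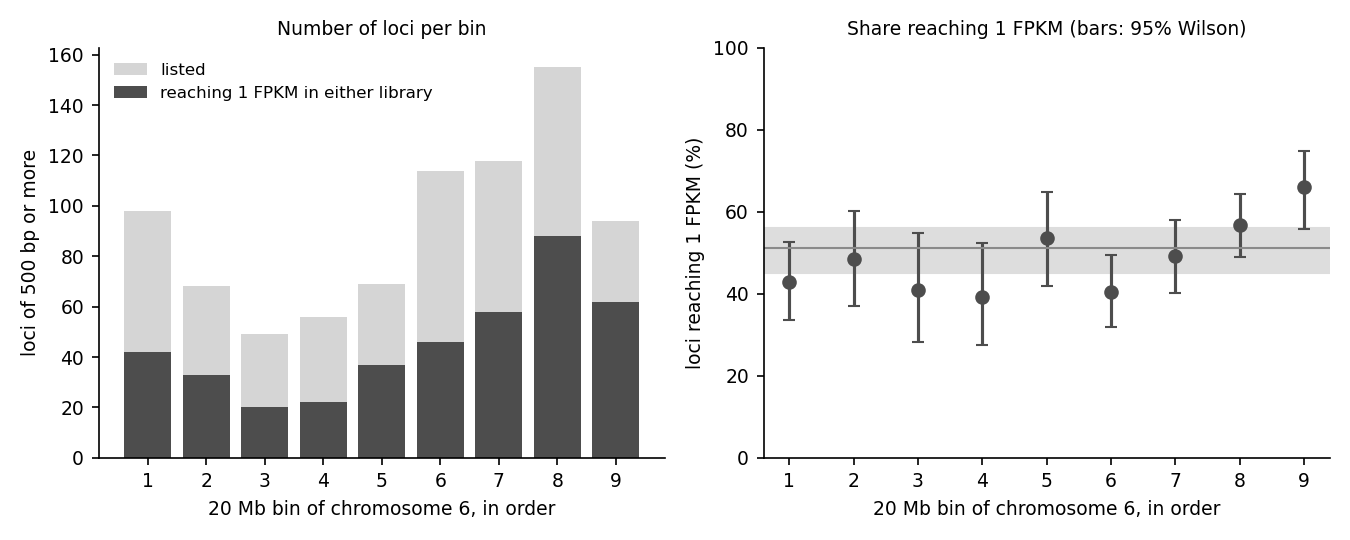
Left, number of loci of 500 bp or more in each 20 Mb bin of chromosome 6 (light bars) and number reaching 1 FPKM in either library (dark bars). Right, the share reaching 1 FPKM (%) with 95% Wilson intervals; the line and band give the median (51.2%) and quartiles (45.1% and 56.0%) of 84 bins of the other chromosomes, and bin 9 (beyond 160 Mb) stands highest at 66.0%.

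Differences between the libraries were most frequent in the bins at 20 to 40 Mb and at 80 to 100 Mb. At 20 to 40 Mb, 13 of 33 loci differed by 2-fold (39.4%, 95% Wilson interval 24.7 to 56.3), 6 higher and 7 lower in rea1. At 80 to 100 Mb, 14 of 37 differed (37.8%, 24.1 to 53.9), 8 higher and 6 lower. None of the 84 bins of the other chromosomes reached either share, the highest being 35.5% and the median 18.6%. This rank was lost when bins started 10 Mb further on. The highest bin of chromosome 6 then had 34.5%, at 30 to 50 Mb, and 4 of 94 bins of the other chromosomes reached that share, the highest at 40.9%. The stretch at 80 to 100 Mb was then divided between bins with 28.1% and 29.5%. Both directions were therefore present in each of these bins. Under the scaling to a median ratio of 0, their shares were 33.3% and 31.4%, and the highest bin of the other chromosomes stood at 33.3%.

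The stretch between these bins differed least. At 40 to 60 Mb 2 of 20 loci differed (10%, 2.79 to 30.1), both higher, and at 60 to 80 Mb 3 of 22 (13.6%, 4.75 to 33.3), all lower. The remaining bins lay between, with 8 of 42 loci below 20 Mb (19.0%), 8 of 46 at 100 to 120 Mb (17.4%), 17 of 58 at 120 to 140 Mb (29.3%), 24 of 88 at 140 to 160 Mb (27.3%) and 14 of 62 beyond 160 Mb (22.6%). With few loci in each bin the intervals of neighbouring bins overlap, those of the extreme bins included, and no difference between bins was tested. The share of the whole chromosome did not rest on 1 bin. With each bin left out in turn it stayed between 24.0% and 26.2%, and without the bins at 20 to 40 Mb and 80 to 100 Mb together it was 22.5% (18.4 to 27.2).

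**Figure D3:**
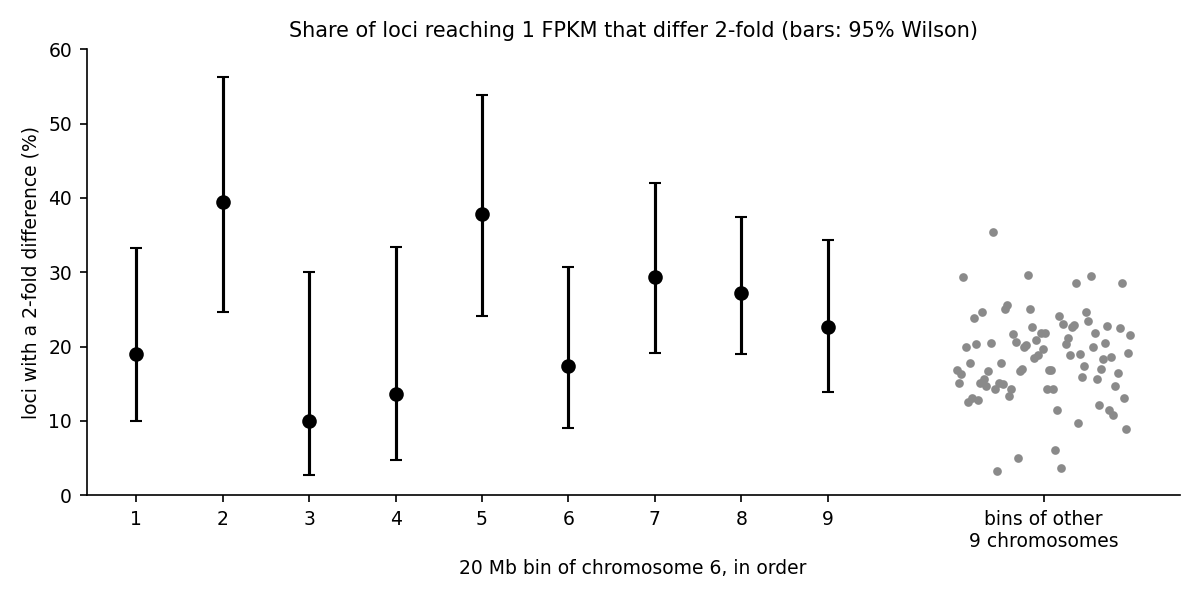
Share of loci reaching 1 FPKM that differed 2-fold between rea1 and WT (vertical axis, %) in each 20 Mb bin of chromosome 6 (black, with 95% Wilson intervals) and in 84 bins of the other 9 chromosomes (grey points, spread sideways for visibility). Bins 2 and 5, at 39.4% and 37.8%, lie above all grey points, and bins 3 and 4, at 10% and 13.6%, lie low.

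Restricted to loci reaching 10 FPKM, where values rest on more fragments, the bin at 20 to 40 Mb had the highest share. These loci are part of those by which the bins were set apart. Their counts by bin are therefore no separate support. Over the chromosome 57 of 182 such loci differed (31.3%, 25.0 to 38.4), 38 higher and 19 lower. Elsewhere 20.7% differed, 14.7% higher and 5.98% lower. At 20 to 40 Mb 10 of 18 differed, 5 in each direction, and at 80 to 100 Mb 7 of 19, 5 of them higher. At 120 to 140 Mb and 140 to 160 Mb the counts were 10 of 29 and 14 of 41. At 60 to 80 Mb none of 7 loci differed.

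Of the 19 loci with a 4-fold difference, 11 lay at 20 to 40 Mb or 80 to 100 Mb. These bins hold 70 of the 408 loci (17.2%) and 27 of the 103 loci differing by 2-fold (26.2%). Every 4-fold locus is also a 2-fold locus, and the bins were set apart by their 2-fold shares. The count is therefore no separate support for them. Of the 13 loci listed at 0 in 1 library (3.19%, against 3.94% elsewhere), 7 lay in these bins. With a pseudocount of 1 FPKM all 13 pass 2-fold, so this count is no separate support either. These 13 were all low, and none exceeded 5.97 FPKM in the other library. The bins below 20 Mb, at 60 to 80 Mb and at 100 to 120 Mb held no 4-fold difference.

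**Figure D4:**
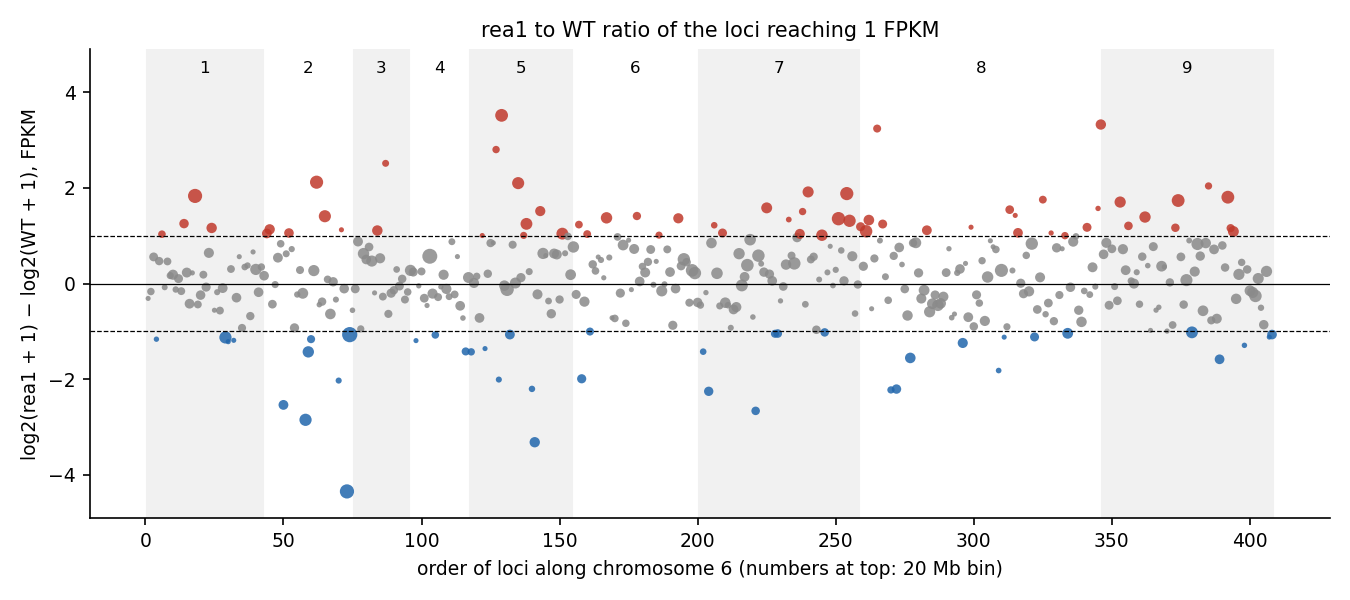
Ratio of rea1 to WT, as the difference of log2(FPKM + 1) (vertical axis), for the 408 loci of chromosome 6 reaching 1 FPKM, in their order along the chromosome (horizontal axis), with larger points for higher mean FPKM. Red points are 2-fold or more higher in rea1 (62 loci), blue points lower (41 loci), grey points within 2-fold, and shading with numbers marks the 20 Mb bins.

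Among loci reaching 10 FPKM, the greatest ratio in favour of rea1 was at 85885932 to 85886638, a locus of 707 bp. It had 341 FPKM in rea1 and 28.9 in WT, a log2 ratio of 3.52. The locus at 159967557 to 159969498 followed, with 41.0 FPKM in rea1 and 3.19 in WT (log2 ratio 3.33). The next, at 34438653 to 34440618, had 429 FPKM in the rea1 library and 98.0 in the WT library (log2 ratio 2.12). In the same bin as the first, the locus at 90693857 to 90695543 had 157 FPKM in rea1 against 35.9 (log2 ratio 2.10). These 4 were the only loci of 182 at this level that were 4-fold higher in rea1, against 1.98% elsewhere, and 7 were 4-fold lower, against 1.51%. Both directions together were 11 loci, against 3.48% elsewhere.

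The lowest ratio belonged to a locus of 688 bp at 39087615 to 39088302, whose FPKM was 73.1 in rea1 and 1507 in WT (log2 ratio -4.35). The locus at 95227104 to 95229302 had 3.11 FPKM in rea1 and 40.0 in WT (log2 ratio -3.32). At 31567089 to 31568921 the values were 25.9 and 193 FPKM (log2 ratio -2.85). The locus at 127629032 to 127630234 had 0.88 FPKM in rea1 and 10.9 in WT, a ratio of -2.66 that rests on a low rea1 value. At 27449601 to 27461305, a locus of 11705 bp, FPKM was 3.59 in rea1 and 25.6 in WT (log2 ratio -2.54). Of the 5 lowest ratios, 3 thus lay at 20 to 40 Mb. These 3 are among the 2-fold loci that set this bin apart, so they are no separate support for it.

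Further large differences lay beyond 100 Mb. The locus at 120993855 to 120995810 had 2.89 FPKM in rea1 against 17.5, and that at 142288083 to 142289207 had 3.23 and 18.5. At 143320298 to 143325895 the values were 12.8 and 39.5 FPKM, and at 164778158 to 164784622 they were 6.30 and 20.9. These loci were lower in rea1 by 2-fold or more. Higher in rea1 were the loci at 132443893 to 132446471, with 64.3 FPKM against 16.3, and at 160236502 to 160240676, with 70.1 against 20.8. The locus at 100854079 to 100854677 had 3.06 FPKM in rea1 and 15.1 in WT, a 4.95-fold difference. Its log2 ratio of -1.99, with 1 FPKM added to both values, fell just short of 4-fold.

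The summed FPKM of the loci of 500 bp or more was nearly even between the libraries and was set by few loci. It was 14777 in rea1 and 13632 in WT, a ratio of 1.08, where the other chromosomes ranged from 0.35 to 1.47. Chromosome 6 held 24 loci of this span with a mean of 100 FPKM or more, and they made up 64.7% of this sum in rea1 and 68.1% in WT. Without them the ratio was 1.20, against 1.16 on the other chromosomes without theirs. The shorter loci of chromosome 6, left out of these sums, had 433 FPKM in rea1 and 4548 in WT. With them the sum of the chromosome was higher in WT.

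In WT the highest levels among loci of 500 bp or more were found at neighbouring loci near 39.1 Mb, both lower in rea1. The locus at 39091667 to 39092487, of 821 bp, had 1589 FPKM in rea1 and 3335 in WT, a log2 ratio of -1.07. It lies 3.36 kb beyond the locus at 39087615 to 39088302 given above, which had the lowest ratio among loci of 500 bp or more. Together these neighbours had 1662 FPKM in rea1 and 4842 in WT, 2.91-fold lower. They held 35.5% of the sum of chromosome 6 in WT and 11.3% in rea1. Without them the sum of the chromosome was 13114 FPKM in rea1 and 8790 in WT, a ratio of 1.49 in place of 1.08. The sources used here do not say whether fragments were shared between these neighbours.

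The other locus with a mean of 1000 FPKM or more lay within 2-fold. At 70732363 to 70733351 the values were 2196 FPKM in rea1 and 1479 in WT, a log2 ratio of 0.57. It alone made up 91.8% of the summed FPKM of its bin in rea1 and 88.0% in WT. The rest of the bin at 60 to 80 Mb summed to 196 FPKM in rea1 and 202 in WT and so was nearly even, although 3 of the 22 loci there were lower by 2-fold.

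Among loci of 500 bp or more, abundant ones with a 2-fold difference were lower as well as higher in rea1 in the first 80 Mb. Beyond 80 Mb they were only higher. Of 7 loci with a mean of 100 FPKM or more in the first 4 bins, 4 were lower and 2 higher, and 1 was within 2-fold. Of 17 in the other 5 bins, 7 were higher, none was lower and 10 were within 2-fold. At 100 to 1000 FPKM, the level of all 17, 45.1% of loci on the other chromosomes were higher and 6.79% lower, so the counts beyond 80 Mb are near the background. This split of the chromosome was chosen after the values were seen. Under the scaling to a median ratio of 0, 4 were lower and 2 higher in the first part, and 6 were higher and 0 lower in the second. The 9 higher loci were 2.15-fold to 11.8-fold higher. The share of 2-fold loci at 100 to 1000 FPKM was near the background, as given above.

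The first of the higher loci was at 4596812 to 4616642, a locus of 19831 bp, with 1141 FPKM in rea1 and 320 in WT (log2 ratio 1.83). Another row of this position had 3.16 and 4.63 FPKM. In the second bin the locus at 34438653 to 34440618, described above, was also higher. Lower in the first bins, beside the loci near 39.1 Mb and that at 31567089 to 31568921, was a locus of 570 bp at 10131644 to 10132213, where FPKM was 66.9 in rea1 and 147 in WT.

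Beyond 80 Mb, 6 of the 7 higher loci lay in 2 stretches, the other being that at 85885932 to 85886638 described above. The stretches were drawn after the values were seen, and no background is given for such grouping. At 136879633 to 136883005 FPKM was 477 in rea1 and 186 in WT, 2.57-fold higher. At 137601820 to 137603656 it was 434 and 117, 3.71-fold higher, and at 138049053 to 138052221 it was 174 and 69.6. The locus at 140596596 to 140599178 had 184 FPKM in rea1 and 85.6 in WT, a log2 ratio of 1.09 that became 0.86 under the scaling to a median ratio of 0. All 4 lie within 4 Mb, although loci of lower level lie between them. Near the end of the list, the locus at 163078693 to 163081080 had 296 FPKM in rea1 against 88.2, and that at 164882426 to 164884675 had 302 and 85.8.

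The remaining abundant loci lay within 2-fold, by definition. Besides that at 70732363 to 70733351, 10 had this range, with 120 to 332 FPKM in rea1 and 87.4 to 361 in WT, and 8 of these were higher in rea1. The most abundant of them, at 87282559 to 87286379, had 332 FPKM in rea1 and 361 in WT. At 151964116 to 151972386 FPKM was 275 in rea1 and 227 in WT. At 117409899 to 117410461 it was 173 and 143. The locus nearest to 2-fold, at 155586898 to 155589769, had 157 FPKM in rea1 against 87.4, a 1.79-fold difference. That at 127678759 to 127684774 had 162 and 108 (log2 ratio 0.58). The sparse bin at 40 to 60 Mb held no locus of this level. Its leading locus, at 43780383 to 43786657, had 63.6 FPKM in rea1 and 40.9 in WT. The longest member, of 91035 bp at 44167391 to 44258425, had 47.6 and 34.1 FPKM. The third locus of the bin, at 47690988 to 47694869, had 32.6 FPKM in rea1 against 14.6, and was 1 of the 2 higher loci there.

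**Figure D5:**
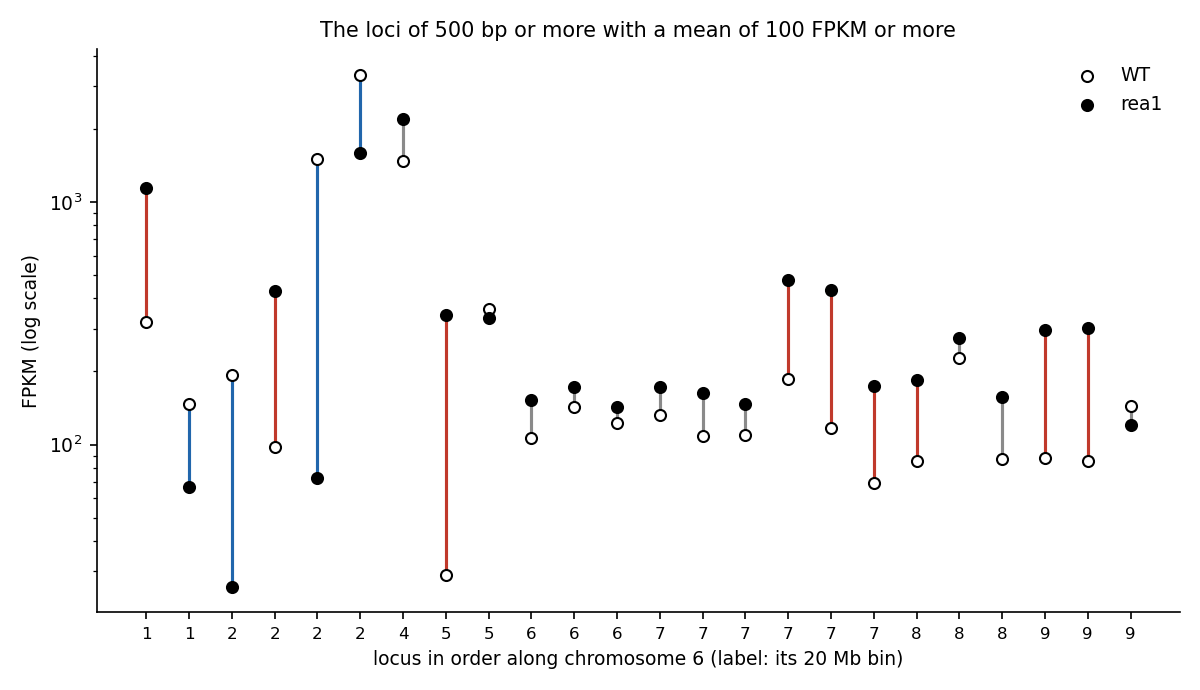
FPKM in WT (open circles) and rea1 (filled circles) on a log axis for the 24 loci of chromosome 6 of 500 bp or more with a mean of 100 FPKM or more, in their order along the chromosome, labelled by 20 Mb bin. Red lines join loci 2-fold or more higher in rea1 (9 loci), blue lines loci lower (4 loci, all in bins 1 and 2), grey lines loci within 2-fold (11 loci).

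Summed by bin over loci of 500 bp or more, levels were higher in rea1 in 8 of 9 bins. Under the scaling to a median ratio of 0 they were higher in 7 of 9. Most bins elsewhere were also higher before scaling. Over 84 bins of the other chromosomes the ratio of sums had a median of 1.27 and quartiles of 1.08 and 1.52. Single loci decided the size in several. Below 20 Mb the sum was 1523 FPKM in rea1 and 741 in WT, a ratio of 2.05. Without the locus at 4596812 to 4616642 it was 382 and 421, a ratio of 0.91. At 20 to 40 Mb the sum was 2561 in rea1 and 5532 in WT, a ratio of 0.46. Without the neighbours near 39.1 Mb, which held 87.5% of the WT sum of this bin, it was 898 and 690, a ratio of 1.30.

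From 80 Mb on, the sums of loci of 500 bp or more stayed higher in rea1 without the leading locus of each bin. At 80 to 100 Mb the sum was 1387 FPKM in rea1 and 860 in WT, and 1055 and 500 without the locus at 87282559 to 87286379, a ratio of 2.11. At 120 to 140 Mb the ratio was 1.78, and 1.65 without its leading locus. At 100 to 120 Mb, 140 to 160 Mb and beyond 160 Mb the ratios were 1.29, 1.15 and 1.46, and 1.31, 1.14 and 1.31 without the leading loci. At 140 to 160 Mb the sum of 1512 FPKM in rea1 and 1314 in WT leaves out the short locus at 144915969 to 144916313. That locus alone had 3828 FPKM in WT and 0 in rea1, so with it the bin was higher in WT. Under the scaling to a median ratio of 0, the bin at 140 to 160 Mb turned to 0.98, and to 0.97 without its leading locus, while the others from 80 Mb on stayed above 1. The median ratio over loci of a bin ran from -0.16 at 60 to 80 Mb to 0.32 at 100 to 120 Mb, 7 of 9 bins having a positive median, or 3 of 9 under the scaling to a median ratio of 0. The 95% interval of each bin's median included 0. Before scaling, the medians of 84 bins of the other chromosomes had quartiles of 0.015 and 0.17, so most were positive there too.

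Neighbouring loci rarely changed together over longer stretches. For this purpose rows of 1 position were summed, which left 398 positions reaching 1 FPKM, and a run was defined as 3 or more neighbours in this order that were all at least 1.5-fold higher or all lower. Chromosome 6 had 7 runs with 22 positions, or 5.53% of its positions, against 5.13% elsewhere and 2.51% to 7.84% on single chromosomes. The share of positions in runs was thus near the background by this definition, while 46.5% of positions passed 1.5-fold on chromosome 6 and 37.4% to 42.0% on the others. Over 12 other settings the share in runs exceeded that elsewhere in 8 and fell short in 4. In runs of 2-fold neighbours it was 1.51% against 0.57%, and in runs of 4 or more 1.01% against 1.68%. The longest run held 4 positions, and on the other chromosomes the longest held 7.

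Of the 7 runs, 6 were higher and 1 was lower in rea1, and of 76 runs on the other chromosomes 53 were higher and 23 lower. The run of 4 extended from 159858828 to 160193440 and summed to 81.4 FPKM in rea1 and 25.2 in WT, with 8 positions listed within its bounds, those under 1 FPKM included. Its second locus, at 159967557 to 159969498, gave most of the difference, its FPKM being 41.0 against 3.19. The shortest run lay at 27490710 to 27502968, over 12.3 kb, with no other listed position of 500 bp or more in between. Its 3 loci had 3.09, 16.7 and 2.27 FPKM in rea1 and 1.66, 7.48 and 0.99 in WT. They were thus each higher, by a log2 ratio of 0.62 to 1.06.

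The highest levels in a run were found at 164882426 to 165518066. Its loci had 302, 6.80 and 46.7 FPKM in rea1 and 85.8, 2.49 and 21.4 in WT, all 3 past 2-fold. The lower run reached from 31567089 to 33725118 and also passed 2-fold at all 3 loci, with 25.9, 26.4 and 2.45 FPKM in rea1 and 193, 72.9 and 6.73 in WT. Of the other 3 runs, that at 141037374 to 141663820 summed to 22.1 FPKM in rea1 and 4.93 in WT. That at 84131656 to 85399078 summed to 13.9 and 3.52, and that at 151681838 to 151775166 to 6.83 and 2.79.

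Neighbours that both passed 2-fold mostly ran the same way on chromosome 6 and on the other chromosomes together. There were 24 such pairs among 397, of which 17 shared a direction, 10 with both loci higher and 7 with both lower. Such pairs were 6.05% of all neighbouring pairs on chromosome 6 against 3.4% elsewhere, where single chromosomes reached 2.60% to 4.44%. Single positions also passed 2-fold more often here, with 25.1% against 18.1% elsewhere. The share of pairs is therefore no sign by itself that neighbours changed together. On the other chromosomes 105 of 168 pairs ran the same way (62.5%), against 70.8% here. Singly, those chromosomes ranged from 42.1% on chromosome 8 to 75% on chromosome 1. The median gap within the 24 pairs was 206 kb, and 4 pairs lay within 10 kb. Apart from the loci near 39.1 Mb, these close pairs were at 102904826 to 102919737, where the loci ran opposite ways, and at 153427827 to 153437095 and 167914792 to 167917718, where they ran the same way. Over all 397 neighbouring pairs the ratios had a Pearson correlation of 0.043 and a Spearman correlation of 0.018, which describe loci of the same libraries. The other chromosomes had Pearson values of -0.031 to 0.079. All these values lay near 0.

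Rows of 1 position were few. Of the 821 rows, 42 shared 21 positions, and at 10 of these both rows reached 1 FPKM. Summing them left 25.1% of 398 positions differing by 2-fold. On either side of the limit of 500 bp, 17 loci were inside it and 15 outside it by less than about 50 bp. Of the former 1 reached 1 FPKM and of the latter 5 did, of which 1 and 3 differed by 2-fold.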

How the data were processed

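Per the labels' protocols, endosperm RNA was isolated with Trizol, cleaned up with DNase I and sequenced as standard Illumina libraries. The authors deposited FPKM values, named so per the file headers, with 1 value for each of 12140 loci and genotype. Bowtie 0.12.2 is named per the submitters' processing notes. The sources used here name no FPKM program, genome build, gene annotation or filter. Depth is unknown, and the fragment numbers are rough. The end minus the start was divisible by 3 for 39.7% of loci, and starts were read as counting from 0 and printed 1 higher. The gene table at hand belongs to another or unmatched assembly, 0 loci could be matched to it, and no sequence is shown.

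From the FPKM values, the members, 20 Mb bins, runs and ratios were computed with a pseudocount of 1 FPKM. Shares carry 95% Wilson intervals and medians 95% intervals from binomial order statistics. No test was made with 1 library a genotype. Members, bins, lists and naming rules were chosen with earlier results of these data known. Loci were named by position where their mean was 1000 FPKM or more, where they were among the 5 most abundant 2-fold loci per direction at 100 to 1000 FPKM, among the 10 highest or lowest ratios at 10 FPKM or more, in a run, leading in a bin, or among the 3 most abundant of the bins with the highest and lowest 2-fold share. The loci at 127678759, 138049053, 140596596 and 155586898, the close pairs and the short loci were given after their values were seen. Alternatives covered pseudocounts, minimum levels, thresholds, scaling (the trimmed mean left out 30% of ratios and 5% of levels on each side), span limits and summed positions. The steps were checked on simulated data. The software was Python 3.11.15 (matplotlib 3.10.9, numpy 2.4.6, scipy 1.17.1, pandas 2.3.3).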

Additional observations from a re-analysis of the deposited data

Results flagged for a closer look

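Loci of chromosome 6 under 500 bp were outside the comparison. At 162700197 to 162700667, a span of 471 bp, the rea1 library had 11.1 FPKM while WT was listed at 0, a signal above the level of the control library. In the other direction, 3 such loci were above 10 FPKM in WT and listed at 0 in rea1. One of them, at 144915969 to 144916313, reached 3828 FPKM in WT, the highest WT value of chromosome 6 at any span. That at 105257873 to 105258025 had 39.4, and that at 47963353 to 47963555 had 14.7. At 140536934 to 140537348 the values were 8.73 FPKM in rea1 and 387 in WT. Of the 102 short loci 40 reached 1 FPKM, and 12 were 2-fold higher and 12 lower, or 60% (95% Wilson interval 44.6 to 73.7). On the other 9 chromosomes 264 of 440 short loci differed, also 60%, with 110 higher and 154 lower. The part of span in these differences was not tested.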

How the results depend on the processing

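The share of chromosome 6 loci differing by 2-fold exceeded that of the other chromosomes together, and of each singly, under all 13 alternative settings of level, scaling, threshold and span, although at 4-fold the margin over the highest was small (4.66% against 4.64%). The share itself was 35.8% and 6.86% with pseudocounts of 0.1 and 10, 31.3% at a minimum of 10 FPKM, 16.0% with no minimum, 46.8% at 1.5-fold, and 39.1% after rescaling without the 100 most abundant loci. The numbers higher and lower were 18 and 10 with a pseudocount of 10, 38 and 19 at 10 FPKM, 116 and 75 at 1.5-fold, 8 and 11 at 4-fold, and 97 and 121 without the 100 most abundant loci. Scaling the median ratio to 0 left 38 higher. The median log2 ratio became -0.061 under that scaling and -0.13 without the 100 most abundant loci, so its sign depends on scaling. The cause was not tested. The share of loci expressed was 22.2% at 10 FPKM, 68.6% without the 100 most abundant loci, whose removal raises all other values, and 54.8% at spans of 1000 bp or more. Positions in runs numbered 44 and 0 with pseudocounts of 0.1 and 10, 66 without the 100 most abundant loci, 6 in runs at 2-fold and 4 in runs of 4 or more. With bins starting 10 Mb further on, the highest share was 34.5%, at 30 to 50 Mb. Leaving out bins, the scaling by bin and the scaling of single loci were chosen after seeing the data. Of the 30 loci named by rule for level or ratio, 4 crossed 2-fold under some setting. Of the 34 others among the abundant loci, runs and close pairs, 21 did, 14 of them with a pseudocount of 10. None of these 64 changed direction while past 2-fold. No paired analysis was possible because there is only 1 library per genotype, which also means that none could be omitted.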
